A study of Homo sapiens with 9 samples.

Results

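A set of 10 genes of the Notch pathway were followed across 2 prostate cancer cell lines: the receptors NOTCH1, NOTCH2, NOTCH3 and NOTCH4, the ligands JAG1, JAG2, DLL1 and DLL4, and the target genes HES1 and HEY1. They were taken by symbol from the gene count table, where all 10 were found among 28216 genes. RNA-seq of poly(A) RNA had been made from 9 libraries in 3 groups of 3. PC3 cells, an androgen-insensitive line from a prostate cancer metastasis, were grown untreated in Ham's F12K medium with fetal bovine serum. LNCaP cells of clone FCG, an androgen-responsive line also from a metastasis, were first held in RPMI without phenol red and with charcoal-stripped serum for 24 h. They were then given either 10 nM androgen or 0.01% ethanol as vehicle for 48 h. The androgen is named DHT in the sample labels and R1881, a synthetic androgen, in the main text of the study. Medium, serum and hormone exposure therefore differed together with the line and cannot be told apart from it, and each was 1 established line, so other prostate cancers are not covered. The sources do not say whether the 3 libraries of a group came from separate cultures, so each p-value measures the spread between these libraries, which may be technical.

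Notch is a short-range signalling system in which a ligand on 1 cell binds a receptor on its neighbour. Binding lets ADAM proteases and then the gamma-secretase complex cut the receptor, and the freed intracellular part enters the nucleus and joins the DNA-binding protein RBPJ and a Mastermind coactivator to switch on genes such as HES1 and HEY1. In the prostate the pathway is known for its part in epithelial differentiation and has been studied in cancer progression. The cleaved receptor is a protein product and was not measured here, so the values below are transcript levels.

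The libraries held 17397706 to 25640325 counts on genes (median 21434125). Of the LNCaP markers, KLK3, which encodes prostate-specific antigen, had 2 to 20 counts in PC3, 86989 to 88995 with androgen and 9831 to 12789 with vehicle, and KLK2 and FOLH1 had at most 7 counts in any PC3 library. TMPRSS2 had 544 to 974 counts in PC3 against at least 3070 in LNCaP, and HOXB13 did not separate the lines in that direction, at 600 ± 180 CPM in PC3 against 423 ± 9.27 with androgen and 536 ± 10.6 with vehicle (SD, n = 3 each). Levels are given as CPM, counts scaled to a common library total, adjusted by edgeR's trimmed mean of M values (TMM) over all 9 libraries. Differences are log2 fold changes from edgeR's quasi-likelihood test on the 6 libraries of each comparison. Their standard errors (SE) were derived from that test, as the absolute log2 fold change divided by the square root of its F statistic. Adjusted p is the Benjamini-Hochberg value over all genes tested. A gene was called when its adjusted p was below 0.05 and it differed at least 2-fold, and only genes above 3 CPM in at least 3 libraries of a comparison were tested. In bulk RNA, fewer cells expressing a gene and less RNA in each cell cannot be told apart.

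The largest differences among these genes lay between the cell lines, and 2 members were called between the LNCaP groups. Against androgen-treated LNCaP, PC3 had 3 members called higher (HES1, HEY1 and DLL4) and 3 called lower (NOTCH3, JAG2 and DLL1) of 9 tested, where 24.0% of all tested genes were called higher and 22.1% lower. Against vehicle-treated LNCaP, 4 were called higher (HES1, HEY1, DLL4 and JAG1) and 4 lower (NOTCH1, NOTCH3, JAG2 and DLL1) of 9 tested, beside 22.2% and 21.0% of all genes. DLL4 and HEY1 passed the filter only through PC3, and DLL1 only through LNCaP, so these 3 had to differ in order to be tested and their calls add nothing to the counts. Between the LNCaP groups, JAG1 and HES1 were called higher with androgen and none was called lower of 7 tested, beside 6.54% and 7.49% of all genes. The median log2 fold change of the tested members was 0.27, 0.58 and 0.14 in these 3 comparisons, against 0.04, 0.03 and -0.01 over all tested genes. The comparisons with PC3 share the PC3 libraries, and each LNCaP group serves in a pair of comparisons, so the 3 sets of values are not independent of one another.

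**Figure D1:**
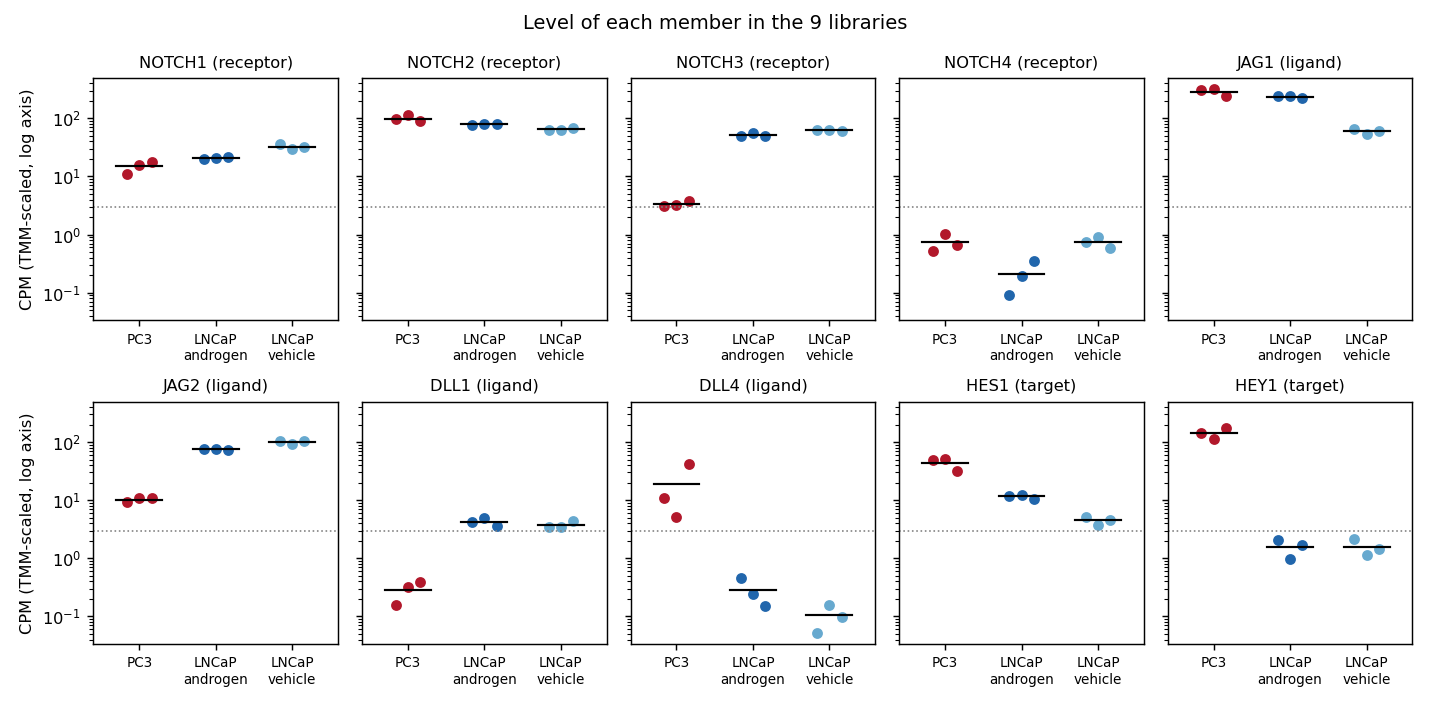
Each point is 1 library and each black line the mean of 3; the vertical axis is TMM-scaled CPM on a log scale and the dotted line is 3 CPM. HEY1 sits at 112 CPM or more in PC3 and near 1.57 CPM in LNCaP, NOTCH3 and JAG2 sit lower in PC3 than in LNCaP, and JAG1 and HES1 sit higher in androgen-treated than in vehicle-treated LNCaP.

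NOTCH3, one of the receptors (chr19:15159038-15200995, minus strand, GRCh38), separated the lines most widely among them. It had 77, 73 and 96 counts in the PC3 libraries, 1056, 1132 and 1003 in androgen-treated LNCaP and 1210, 1196 and 1220 in vehicle-treated LNCaP, or 3.38 ± 0.363, 51.4 ± 3.61 and 62.5 ± 1.76 CPM (SD, n = 3 each). The groups did not overlap, with all PC3 libraries lowest and all vehicle libraries highest. PC3 was lower than androgen-treated LNCaP by a log2 fold change of -3.94 (SE 0.12, edgeR adjusted p = 5.11e-08) and lower than vehicle-treated LNCaP by -4.23 (SE 0.10, adjusted p = 2.27e-08). The androgen-to-vehicle difference was -0.31 (SE 0.06, edgeR adjusted p = 0.000291), which is short of 2-fold.

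NOTCH1 (chr9:136494433-136546048, minus strand) ran in the same order of groups over a narrower range. The counts were 274, 350 and 457 in PC3, 436, 423 and 437 with androgen and 679, 556 and 650 with vehicle. At 14.9 ± 3.61, 20.9 ± 0.785 and 32.5 ± 2.94 CPM (SD, n = 3 each), no library of one group reached into another, although PC3 libraries spread from 10.9 to 18.0 CPM. It was called lower in PC3 only against vehicle-treated LNCaP, by a log2 fold change of -1.15 (SE 0.18, edgeR adjusted p = 0.000450), and without PC3 replicate 1 the value was -0.98 and the call was lost. Against androgen-treated LNCaP it was -0.50 (SE 0.18, edgeR adjusted p = 0.0283) and between the LNCaP groups -0.67 (SE 0.07, adjusted p = 2.37e-06), both short of 2-fold.

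NOTCH2 (chr1:119911553-120100779, minus strand) was the receptor with the smallest spread between groups and ran in the opposite order. It had 2432, 2487 and 2246 counts in PC3, 1672, 1647 and 1576 with androgen and 1218, 1185 and 1372 with vehicle, or 99.1 ± 11.9, 78.8 ± 1.79 and 65.0 ± 2.68 CPM (SD, n = 3 each). All PC3 libraries lay above all androgen libraries, which lay above all vehicle libraries, yet no comparison reached 2-fold. The log2 fold changes were 0.32 (SE 0.09, edgeR adjusted p = 0.0103) and 0.58 (SE 0.09, adjusted p = 0.000473) for PC3 against androgen and vehicle, and 0.25 (SE 0.05, adjusted p = 0.000431) for androgen against vehicle. Of the 74-nt stretches of its exons, the read length used, 6.66% also occur in other genes, chiefly the NOTCH2NL copies. Its level is therefore uncertain, by an amount that was not measured.

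NOTCH4 (chr6:32194843-32224067, minus strand), known mainly from endothelial cells, was close to undetected. The counts were 13, 23 and 17 in PC3, 2, 4 and 7 with androgen and 14, 17 and 12 with vehicle, below 1.1 CPM in every library and below the filter in each comparison. The androgen libraries were all lower than the others, while PC3 and vehicle overlapped. The ratio of summed counts, scaled for depth, was 0.282 for androgen over vehicle (exact 95% interval 0.139 to 0.535, covering counting error only). It was 3.48 for PC3 over androgen (1.87 to 6.97) and 0.983 for PC3 over vehicle (0.645 to 1.51). Fitted without the filter, the log2 fold change was -1.80 for androgen against vehicle (SE 0.47, edgeR adjusted p = 0.00223). For PC3 against androgen it was 1.78 (SE 0.49, edgeR adjusted p = 0.00793). The endothelial marker CDH5 had 0 counts in all 9 libraries, and 5, 7 and 6 of the 8 endothelial markers had at most 3 counts in every PC3, androgen and vehicle library. Their summed level was 6.38 to 9.04 CPM in PC3, 6.93 to 7.94 with androgen and 16.3 to 18.2 with vehicle. In LNCaP most of it was VWF, at 7.51 CPM with androgen and 16.7 with vehicle, against 0.0564 in PC3. No other endothelial marker exceeded 6 counts in an LNCaP library. In PC3 KDR was at 4.25 CPM and PECAM1 at 2.71. The part of these genes in the NOTCH4 values was not tested.

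Receptors can be ranked against one another only per length, so CPM was divided by the kilobases of exon sequence of each gene in GENCODE 44. In PC3 the level per kilobase was 5.92 ± 0.708 CPM for NOTCH2, 1.19 ± 0.288 for NOTCH1, 0.359 ± 0.0386 for NOTCH3 and 0.0760 ± 0.0272 for NOTCH4 (SD, n = 3 each), so NOTCH2 made up 78.5% of the receptor total. With vehicle NOTCH3 stood first at 6.65 ± 0.187 CPM per kilobase, 50.4% of the total, ahead of NOTCH2 at 3.88 ± 0.160 and NOTCH1 at 2.59 ± 0.235. With androgen NOTCH3 was at 5.46 ± 0.384 and NOTCH2 at 4.70 ± 0.107, but this order depended on the length used: by the longest transcript NOTCH2 came first, at 6.89 against 5.92. The ratio of NOTCH2 to NOTCH3 per kilobase was 13.1 to 19.1 in the PC3 libraries, 0.818 to 0.890 with androgen and 0.557 to 0.632 with vehicle, with no overlap between groups.

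**Figure D2:**
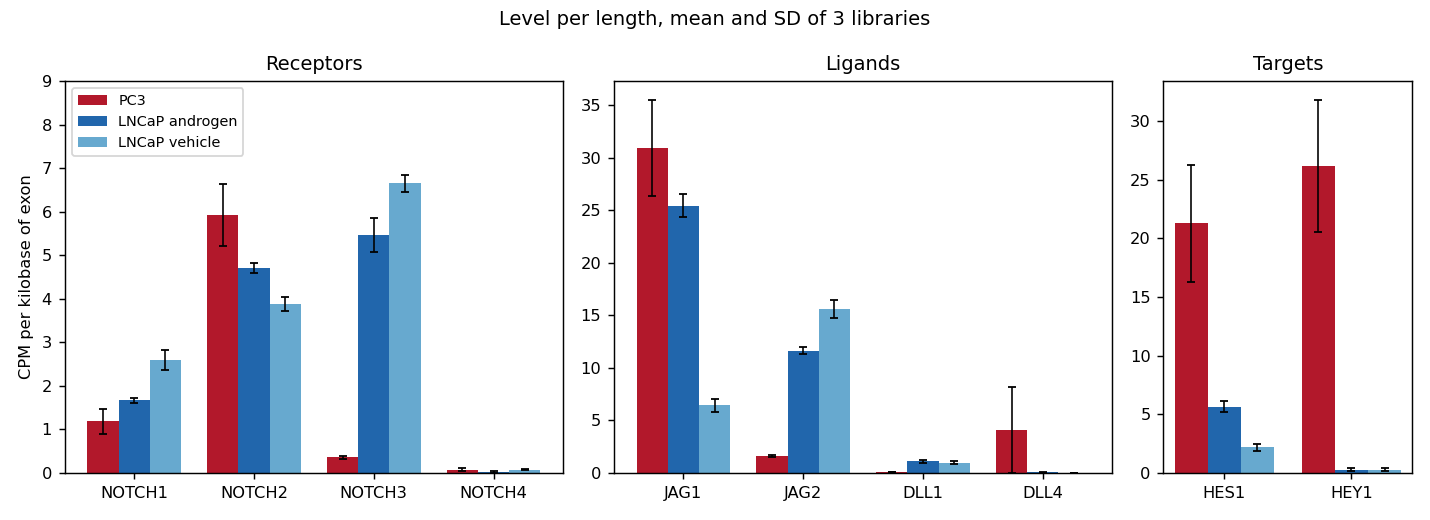
Bars give the mean level per kilobase of exon (CPM per kilobase, linear axis from 0; each panel has its own scale) and error bars the SD of 3 libraries, with lower bars stopped at 0. NOTCH2 at 5.92 leads the receptors in PC3 and NOTCH3 at 6.65 leads them in vehicle-treated LNCaP, while JAG1 leads the ligands in PC3 (30.9) and androgen-treated LNCaP (25.4) and JAG2 (15.6) leads them in vehicle-treated LNCaP.

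JAG1 (chr20:10637684-10673999, minus strand), a Jagged-type ligand, showed the largest androgen difference of the members tested. It had 5264, 4917 and 4534 counts with androgen against 1231, 995 and 1240 with vehicle, and 7775, 6989 and 6050 in PC3. At 237 ± 9.86, 59.7 ± 5.89 and 287 ± 42.8 CPM (SD, n = 3 each), all vehicle libraries were far below the others, and the PC3 and androgen libraries overlapped. JAG1 rose with androgen by a log2 fold change of 1.96 (SE 0.06, edgeR adjusted p = 7.07e-12) and was higher in PC3 than in vehicle-treated LNCaP by 2.25 (SE 0.13, adjusted p = 1.18e-06). Between PC3 and androgen-treated LNCaP it was 0.27 (SE 0.11, edgeR adjusted p = 0.0482), short of 2-fold, and the adjusted p was as high as 0.143 when 1 library was left out.

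JAG2 (chr14:105140982-105168824, minus strand), the other Jagged ligand, ran the opposite way. The counts were 232, 238 and 273 in PC3, 1644, 1536 and 1451 with androgen and 1967, 1752 and 2078 with vehicle, or 10.2 ± 0.850, 74.5 ± 2.09 and 99.8 ± 5.53 CPM (SD, n = 3 each). The groups did not overlap, with PC3 lowest and vehicle highest. PC3 was lower by a log2 fold change of -2.88 against androgen (SE 0.09, edgeR adjusted p = 5.38e-08) and -3.31 against vehicle (SE 0.09, adjusted p = 3.35e-08), and the androgen-to-vehicle value was -0.45 (SE 0.05, adjusted p = 1.12e-06), short of 2-fold. A gene that overlaps it on the same strand holds 6.14% of its 74-nt exon stretches.

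The ligand with the highest level per length therefore changed between the LNCaP groups. JAG1 reached 25.4 ± 1.06 CPM per kilobase with androgen and JAG2 11.6 ± 0.327, whereas with vehicle JAG2 reached 15.6 ± 0.864 and JAG1 6.42 ± 0.634 (SD, n = 3 each). The ratio of JAG1 to JAG2 per kilobase was 2.15 to 2.20 in the androgen libraries, 0.391 to 0.431 in the vehicle libraries and 15.2 to 23.1 in the PC3 libraries. By the longest transcript the mean ratios were 3.09, 0.580 and 27.6, so the order held under both lengths. In PC3, JAG1 at 30.9 ± 4.60 CPM per kilobase made up 84.4% of the ligand total.

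DLL1 (chr6:170282206-170306565, minus strand), a Delta-type ligand, was low in LNCaP and near the limit of detection in PC3. It had 4, 7 and 10 counts in PC3, 92, 99 and 73 with androgen and 66, 64 and 89 with vehicle. PC3 was below every LNCaP library, at 0.289 ± 0.119 CPM against 4.24 ± 0.614 with androgen and 3.76 ± 0.568 with vehicle (SD, n = 3 each), and the LNCaP groups overlapped. The log2 fold changes of PC3 were -3.86 (SE 0.28, edgeR adjusted p = 4.31e-06) and -3.70 (SE 0.28, adjusted p = 5.87e-06), and DLL1 did not pass the test between the LNCaP groups, at 0.14 (SE 0.16, edgeR adjusted p = 0.435). The androgen-to-vehicle ratio of summed counts was 1.12 (exact 95% interval 0.937 to 1.35). FAM120B, which overlaps it on the opposite strand, holds 7.93% of its 74-nt exon stretches.

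DLL4 (chr15:40929340-40939073, plus strand), a Delta-type ligand best known from endothelial tip cells, was the most variable member. The PC3 libraries had 268, 114 and 1063 counts, the androgen libraries 10, 5 and 3 and the vehicle libraries 1, 3 and 2. PC3 replicate 3, at 41.8 CPM, was above the others at 10.7 and 5.13 CPM, while every LNCaP library was below 0.5 CPM. The log2 fold change of PC3 was 6.02 against androgen (SE 1.06, edgeR adjusted p = 0.000880) and 7.45 against vehicle (SE 1.27, adjusted p = 0.000807). Without PC3 replicate 3 these values were 4.73 and 6.14. DLL4 was tested only through its PC3 level and had to differ, so its calls add no support. From summed counts PC3 was 68.6 times the androgen level (exact 95% interval 43.3 to 116, counting error only) and 192 times the vehicle level (88.0 to 524). Among the 8 endothelial markers in PC3, CDH5 had 0 counts, PECAM1 47 to 85, KDR 77 to 123 and TIE1 3 to 8. VWF, TEK, ERG and EMCN had at most 3 counts in any PC3 library, and VWF had at least 148 in every LNCaP library. The part of these genes in the DLL4 counts was not tested. DLL4 was under the filter between the LNCaP groups, where the androgen-to-vehicle ratio of summed counts was 2.80 (1.06 to 8.62) and the fit without the filter gave a log2 fold change of 1.41 (edgeR adjusted p = 0.100).

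**Figure D3:**
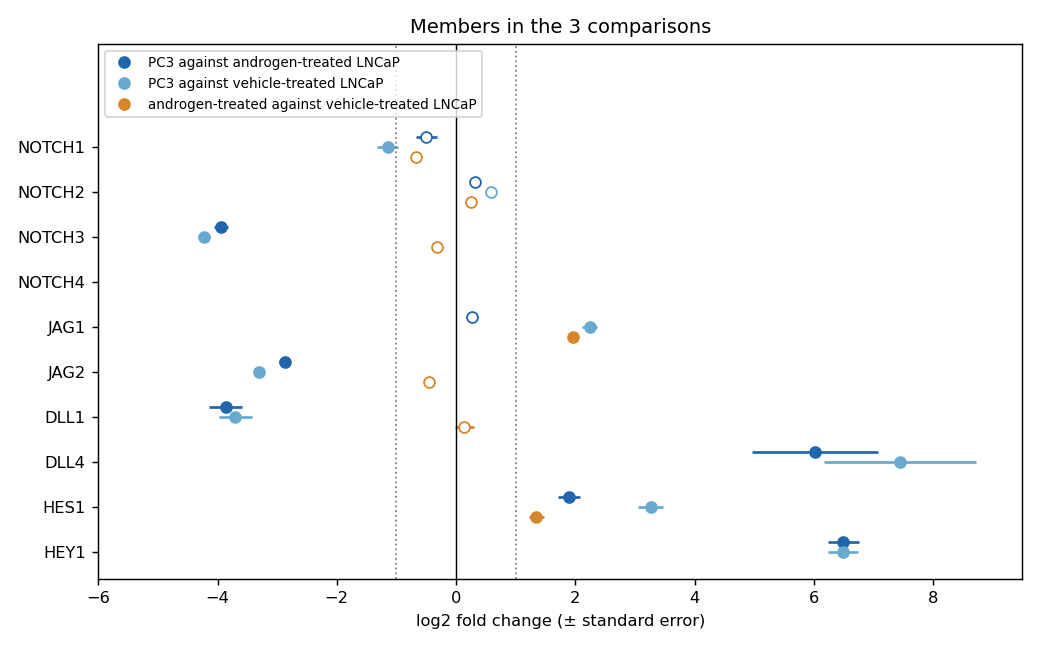
Points are log2 fold changes of the 9 members tested in at least 1 comparison and bars are 1 standard error on each side; filled points were called, open points were not, and dotted lines mark a 2-fold difference. DLL4 has the longest error bars (SE 1.06 and 1.27), and only JAG1 (1.96) and HES1 (1.35) are filled for androgen against vehicle; NOTCH4 was not tested.

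HES1 (chr3:194136148-194138732, plus strand) encodes a basic helix-loop-helix repressor and is a classical target of RBPJ and the cleaved receptor. It had 1232, 1120 and 813 counts in PC3, 257, 255 and 213 with androgen and 97, 71 and 92 with vehicle, or 43.8 ± 10.3, 11.7 ± 0.981 and 4.48 ± 0.649 CPM (SD, n = 3 each). The groups did not overlap, with PC3 highest and vehicle lowest. HES1 rose with androgen by a log2 fold change of 1.35 (SE 0.12, edgeR adjusted p = 3.66e-07), and PC3 was higher than androgen-treated LNCaP by 1.90 (SE 0.18, adjusted p = 2.33e-05) and than vehicle-treated LNCaP by 3.27 (SE 0.21, adjusted p = 2.44e-06).

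JAG1 and HES1 were the members called between the LNCaP groups, and their promoters are shown for that reason, as the 250 bases before the RefSeq start on GRCh38.p14. Capitals mark TGGGAA, the core that RBPJ binds, which occurs in the HES1 window with its first base 84 and 70 bases before the start, chr3:194135898-194136147 on the plus strand. The JAG1 window is chr20:10674000-10674249 on the minus strand and holds no such match.
HES1: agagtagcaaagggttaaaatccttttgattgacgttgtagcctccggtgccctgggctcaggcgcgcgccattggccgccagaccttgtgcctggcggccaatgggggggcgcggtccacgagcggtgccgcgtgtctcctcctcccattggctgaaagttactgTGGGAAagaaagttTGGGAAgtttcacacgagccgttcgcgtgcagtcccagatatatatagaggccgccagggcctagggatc
JAG1: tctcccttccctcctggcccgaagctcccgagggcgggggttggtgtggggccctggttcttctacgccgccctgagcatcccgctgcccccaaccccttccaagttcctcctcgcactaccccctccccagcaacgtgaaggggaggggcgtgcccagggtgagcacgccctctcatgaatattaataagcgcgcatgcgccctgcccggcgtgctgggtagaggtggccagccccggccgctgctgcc
RefSeq promoters were matched for 8 of the 10 members, with no entry for DLL1 and HEY1. The motifs searched for on both strands of the windows included TGGGAA, the E-box CACGTG that HES and HEY proteins can bind and TATAAA. The HES1 pair was the only match among the 8 windows. Over 35116 RefSeq promoters, 20.8% held TGGGAA, 6.34% CACGTG and 10.7% TATAAA, so each is common by sequence alone. A match describes letters in the window and does not show binding.

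HEY1, a hairy-related repressor and the second target gene among the members, had larger fold changes between the lines than HES1. It had 3638, 2494 and 4417 counts in PC3, 44, 20 and 34 with androgen and 41, 21 and 29 with vehicle, or 144 ± 30.9, 1.57 ± 0.537 and 1.57 ± 0.525 CPM (SD, n = 3 each). Every PC3 library was far above every LNCaP library, and the LNCaP groups overlapped. The log2 fold change of PC3 was 6.50 against androgen (SE 0.26, edgeR adjusted p = 2.03e-07) and 6.49 against vehicle (SE 0.26, adjusted p = 1.93e-07). HEY1 was under the filter between the LNCaP groups, where the ratio of summed counts was 1.01 (exact 95% interval 0.748 to 1.35).

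The low LNCaP counts of HEY1 and DLL4 were set beside those of genes typical of PC3. Over 7 PC3 marker genes, VIM among them, the median level in an LNCaP library was 0.108% to 0.977% of that in PC3, and androgen replicate 1 stood highest. HEY1 in the same libraries was 0.682% to 1.49% of its PC3 level and DLL4 0.272% to 2.41%. The part of this trace in the LNCaP values of both genes was not tested. It was 0.241% to 0.977% with androgen and 0.108% to 0.320% with vehicle. Without androgen replicate 1 the log2 fold changes of JAG1 and HES1 between the LNCaP groups were 1.95 and 1.35, and the part of the trace in them was not tested. In the other direction KLK2, a kallikrein gene of LNCaP, had 0 counts in all PC3 libraries, where NOTCH3 had at least 73 and DLL1 at least 4.

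HEY1 lies on chr8:79762371-79767857, minus strand. Per kilobase, HEY1 at 26.2 ± 5.63 CPM and HES1 at 21.3 ± 4.98 CPM (SD, n = 3 each) overlapped in PC3. In LNCaP HES1 stood above HEY1, at 5.66 ± 0.476 against 0.286 ± 0.0978 with androgen and 2.17 ± 0.315 against 0.286 ± 0.0956 with vehicle.

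The rest of the pathway was described with a list of 63 further genes in 8 roles. Against androgen-treated LNCaP, 11 of 51 tested genes were called higher in PC3 and 11 lower, or 21.6% each way beside 24.0% and 22.1% of all genes. Against vehicle-treated LNCaP 13 of 52 were higher and 7 lower. With androgen against vehicle, 3 of 49 were called higher and 5 lower. The median log2 fold changes of the list were 0.40, 0.27 and 0.03. As shares these were 25% and 13.5% beside 22.2% and 21.0% of all genes for PC3 against vehicle, and 6.12% and 10.2% beside 6.54% and 7.49% for androgen against vehicle. As with DLL4, HEY1 and DLL1, some list genes passed the filter only through the group where they were high and so had to differ: 5, 6 and 3 genes in the 3 comparisons, each of them called. They were NEURL1, MAML2, TLE4 and NEURL1B in both comparisons with PC3, DTX3 against androgen, HES2 and DTX4 against vehicle, and DTX3, DTX4 and HES2 between the LNCaP groups. Among the 46 genes that passed through both groups, 7 were called higher and 10 lower, 9 higher and 5 lower, and 2 higher and 3 lower. The matching shares over all genes that passed through both groups were not computed. These counts therefore have no background beside them and show no excess or lack of calls.

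The receptor cleavage list holds ADAM proteases, FURIN and gamma-secretase subunits. Of its 9 tested genes, 2 were called higher in PC3 than in androgen-treated LNCaP and 5 lower. These were 22.2% and 55.6%, beside 24.0% and 22.1% of all genes. Among the higher ones was ADAM17, a sheddase, at a log2 fold change of 1.60. The lower ones included ADAM10, the main protease of ligand-induced cleavage, at -1.71 (SE 0.07, edgeR adjusted p = 2.32e-07), with FURIN at -1.32 and the gamma-secretase subunits PSENEN, NCSTN and APH1B at -1.41, -1.12 and -1.05. Against vehicle-treated LNCaP only ADAM10 was called lower, at -1.12, and ADAM17 was again higher, at 2.24. There 22.2% of the 9 were called higher and 11.1% lower, beside 22.2% and 21.0% of all genes. With androgen against vehicle none of the 9 was called, beside 6.54% higher and 7.49% lower of all genes. Their median log2 fold change was 0.61, with FURIN highest at 0.96.

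Of 8 nuclear complex and coactivator genes, 1 was called higher in PC3 against androgen (MAML2) and 2 against vehicle (MAML2 and KAT2B). These were 12.5% and 25%, beside 24.0% and 22.2% of all genes. None was called lower, beside 22.1% and 21.0% of all genes. Between the LNCaP groups none of 7 was called, beside 6.54% higher and 7.49% lower of all genes. RBPJ, the DNA-binding partner of the cleaved receptor, was at 126 ± 10.9, 126 ± 3.42 and 102 ± 1.64 CPM in PC3, androgen and vehicle (SD, n = 3 each), and its log2 fold changes were -0.01 (SE 0.07, edgeR adjusted p = 0.864), 0.28 and 0.27. MAML2, a coactivator, was at 39.2 CPM in PC3 against 0.961 with androgen and 0.550 with vehicle, log2 fold changes of 5.33 and 6.11, and it was tested only through its PC3 level. KAT2B, an acetyltransferase, was at 60.4, 39.4 and 22.5 CPM, with log2 fold changes of 0.60 against androgen and 1.40 against vehicle. MAML1 was at 52.0, 46.6 and 75.4 CPM and was called in no comparison. TLE4, a Groucho-type corepressor, was also tested only through PC3, at 21.6 CPM against 0.480 and 0.103, while TLE3 of the same family was lower in PC3, at 48.6 against 122 and 291 CPM.

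Of the 11 corepressors tested between the LNCaP groups, 1 was called higher with androgen, 2 lower and 8 were not called, or 9.09% and 18.2% beside 6.54% and 7.49% of all genes. TLE3 fell by 1.29 on the log2 scale and CTBP1, which encodes a corepressor that binds many repressors, fell by 1.79 (SE 0.06, edgeR adjusted p = 1.51e-11), whereas TLE1 rose by 1.27. The deltex genes DTX3 and DTX4, whose family regulates Notch trafficking, had log2 fold changes of -1.14 and -1.40, and both passed the filter only through vehicle, where they were high.

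Ligands must be ubiquitinated to activate a receptor on the next cell, and 4 ligase genes were on the list. NEURL1 was at 7.25 CPM in PC3 and at most 0.185 CPM in any LNCaP library, with log2 fold changes of 6.69 and 5.82. Its relative NEURL1B was the reverse, at 0.692 CPM in PC3, 15.5 with androgen and 35.1 with vehicle, and it fell with androgen by 1.21 on the log2 scale (SE 0.06, edgeR adjusted p = 1.83e-09). Against PC3, NEURL1 was tested only through PC3 and NEURL1B only through LNCaP. MIB2 was higher in PC3 by 2.06 and 1.93. MIB1 was at 163 CPM in PC3, 90.9 with androgen and 66.8 with vehicle. It was called higher in PC3 only against vehicle, at a log2 fold change of 1.26. Of the trafficking genes rather than the ligases, DTX3 was also higher in PC3, at 35.1 CPM against 2.25 and 4.82.

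Of 6 other targets and HES family genes tested, 2 were called higher and 3 lower in PC3 in both comparisons. These were 33.3% and 50%, beside 24.0% and 22.1% of all genes against androgen and 22.2% and 21.0% against vehicle. CCND1, the cyclin D1 gene, was one of the higher pair, at 894 ± 52.4 CPM against 317 ± 17.4 with androgen and 396 ± 23.3 with vehicle (SD, n = 3 each), log2 fold changes of 1.48 and 1.15. NRARP, a target that feeds back on the receptor complex, was lower in PC3, at 7.39 ± 2.17 CPM against 27.9 ± 1.31 with androgen and 31.3 ± 0.392 with vehicle (SD, n = 3 each), and the log2 fold changes were -1.93 (SE 0.20, edgeR adjusted p = 3.90e-05) and -2.10 (SE 0.20, adjusted p = 2.14e-05). HES4 was lower in PC3 as well, by -2.47 and -1.73. HES2, the other of the higher pair, had the order of HES1, at 20.2, 6.16 and 1.40 CPM. Its log2 fold change with androgen was 2.11. Vehicle libraries were all under the filter, so HES2 had to differ from vehicle to be tested, in PC3 and with androgen alike. HES6, a family member that is known to oppose HES1, had the largest rise with androgen on the list, from 59.3 ± 6.23 to 575 ± 88.3 CPM (SD, n = 3 each), a log2 fold change of 3.25 (SE 0.11, edgeR adjusted p = 1.87e-11), and was at 4.34 ± 0.563 CPM in PC3. HES5, HEY2 and HEYL had at most 5 counts in any library.

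**Figure D4:**
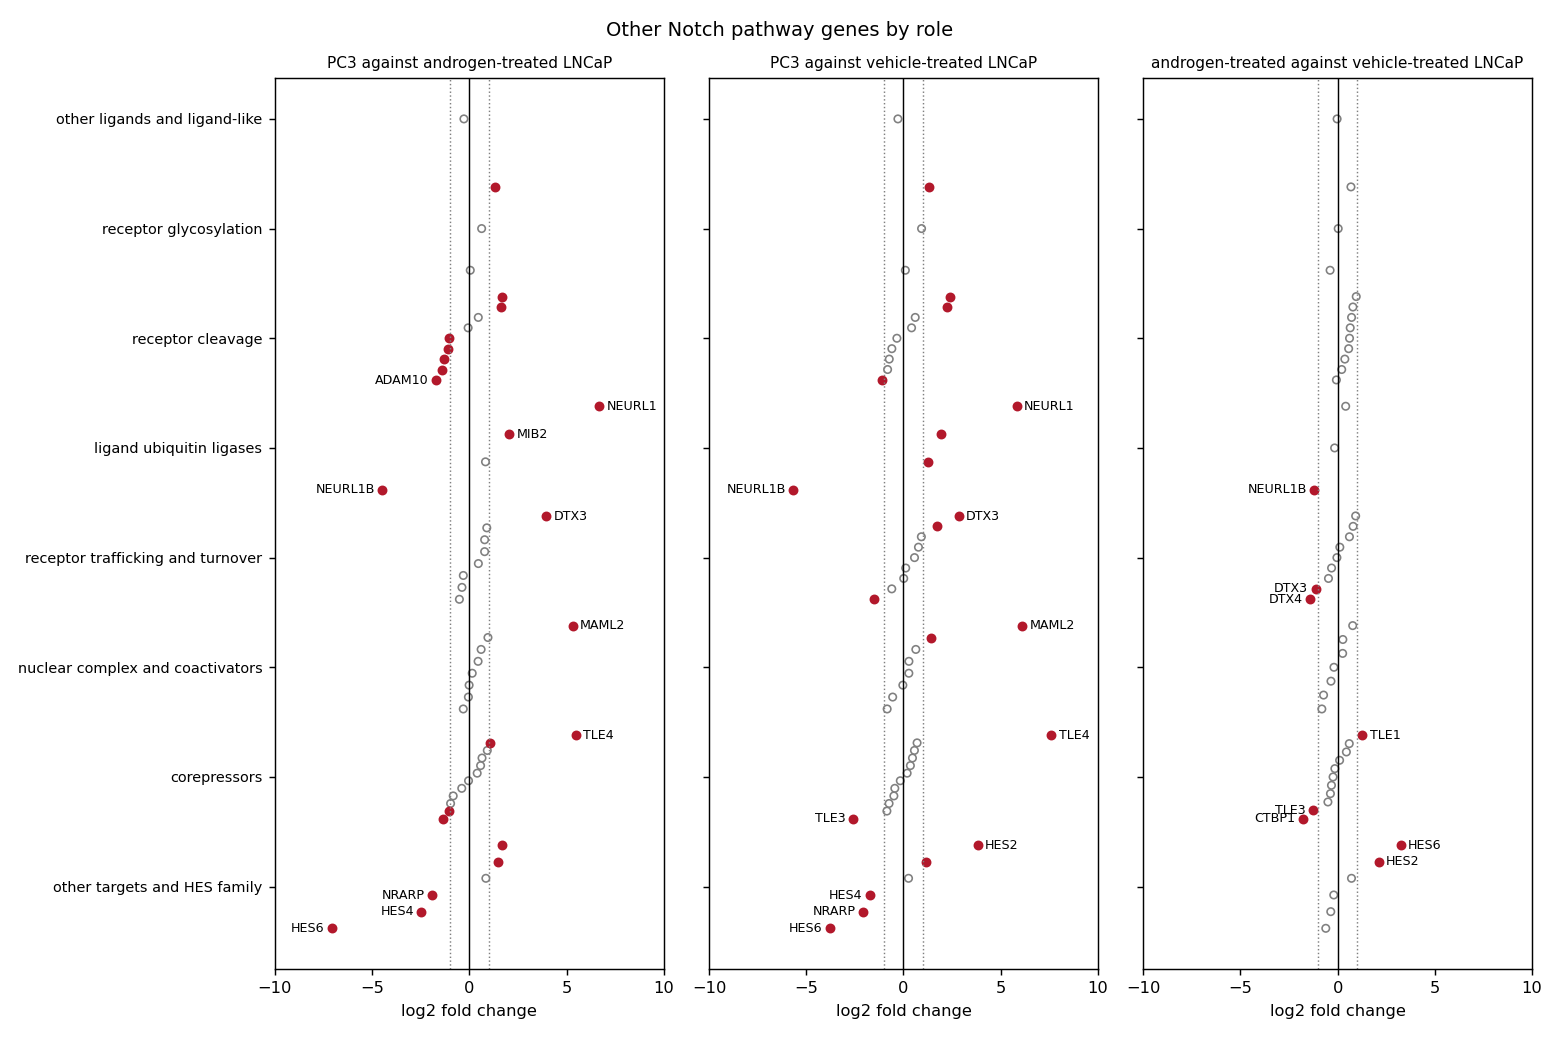
Each point is 1 tested gene of the list of 63, placed by role on the vertical axis and by log2 fold change on the horizontal axis; filled points were called, dotted lines mark a 2-fold difference, and gene names mark up to 5 called genes with the largest difference in each direction. The PC3 panels spread from -7.06 (HES6) to 7.61 (TLE4), and the androgen panel from -1.79 (CTBP1) to 3.25 (HES6).

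The genes whose profile over the 9 libraries lay nearest to that of each member were found among 12843 genes, by the root mean square distance of log2 CPM values after each gene's mean was removed, with 0.5 CPM added. Nearest to JAG1 were ERO1A, at a distance of 0.16, PPFIBP1 and CARMIL1. ERO1A, an oxidase of the endoplasmic reticulum, was at 175, 121 and 32.5 CPM in PC3, androgen and vehicle. Near to HES1 were EPDR1, at 0.20, and OAT, at 0.22. EPDR1 was at 35.9, 8.11 and 3.25 CPM. Nearest to NOTCH3 were PLEKHB1, CEBPA-DT and EGFL7, at 0.11 to 0.14. EGFL7, a secreted protein with EGF-like repeats, was at 2.17, 30.8 and 39.1 CPM. For HEY1 they were MST1R, TRIB2 and TGFB1I1, at 0.20 to 0.22, and for NOTCH1 they were ADGRL1, ARHGAP32 and B4GALNT4, at 0.14 to 0.15. NOTCH2 had the closest neighbours, AASDHPPT, USB1 and LIPA, at 0.06 to 0.07. JAG2 lay nearest to TMPRSS13, DGLUCY and TUBBP5 and DLL1 to FSCN2, TRAF4 and PRAME. In PC3, TMPRSS13 was at 0.0281 CPM and TUBBP5 at 0.0133 CPM, against 10.2 CPM for JAG2. The added 0.5 CPM shrinks differences of genes at such levels, so both separate the lines more widely than JAG2 does. FSCN2 and CEBPA-DT in PC3, and the neighbours of HEY1 in LNCaP, were also below 0.5 CPM. DLL4 had the most distant ones, ABCA10, SLC14A1 and HSPA1A, at 0.47 to 0.53.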

How the data were processed

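The authors deposited raw counts per gene, as a table of the series and as STAR output of each library. Per the labels, 74-nt single-end reads from a stranded poly(A) library kit were processed with cutadapt 4.1, STAR 2.7.7a and UMI-tools 1.1.2, which removed duplicates by molecular identifier. All 253944 values of the table equal the forward-strand STAR column. From 20.25% to 25.43% of counted reads lay on no gene and were left out.

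From the counts, edgeR 4.0.16 in R 4.3.3 gave TMM factors and quasi-likelihood tests, and DESeq2 1.42.0 served as an alternative. Each comparison used its own 6 libraries and genes above 3 CPM in at least 3 of them. Steps were tested on simulated data. The batch term of the study's model is not named in the sources used here and was left out. Exon lengths and positions came from GENCODE 44 on GRCh38 and promoters from RefSeq on GRCh38.p14.

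The members and lists were chosen with earlier results of these data known. All 10 members are named; of the pathway list, up to 5 called genes with the largest rise and fall per comparison are named, and further ones were chosen after their values were seen. Some items are not reported here. Replicate numbers paired the LNCaP groups: same-numbered androgen and vehicle libraries deviated together (correlations 0.194, 0.217 and 0.200 over 11697 genes), as read from the counts, not the labels.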

Additional observations from a re-analysis of the deposited data

How the results depend on the processing

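Each comparison was repeated under 9 other settings and with each of its 6 libraries left out. No member changed direction. Without the filter on low counts, 9147, 8713 and 2941 genes were called for PC3 against androgen, PC3 against vehicle and androgen against vehicle, since more genes were tested. With adjusted p alone and no fold threshold, 10530, 10577 and 8763 genes were called, 43, 46 and 43 of the pathway list, and 6 members for androgen against vehicle. With 1 library left out, 5717 to 5830, 5415 to 5616 and 1601 to 1686 genes were called, with 6, 7 to 8 and 2 members and 21 to 23, 20 to 21 and 7 to 9 list genes. The 1 member call lost was NOTCH1 in PC3 against vehicle, at -0.98 without PC3 replicate 1. With the replicate number as a block (replicate block), 5756, 5495 and 1638 genes and 6, 8 and 2 members were called, so it changed no member's call. In the comparisons with PC3, same-numbered libraries did not deviate together (correlations -0.0925 to 0.0332). The 3 libraries a group limit all tests, and members under about 10 counts a library are bounded by counting error.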
